A study of Mus musculus with 16 samples.

Results

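The genes described here are 10 imprinted genes with roles in growth of the brain and in adult neural stem cells: Dlk1, Igf2, Grb10, Cdkn1c, Meg3, Rian, H19, Plagl1, Peg3 and Ndn. They were found by their symbols in the array's annotation, and 9 of the 10 had a probe set of their own, among 19938 genes measured. H19, a maternally expressed noncoding RNA, had no probe set with its symbol alone and was not analysed here. RNA of brain tissue from mice of 2.5 months on a mixed background of C57BL/6 and CD1 was hybridised to 16 arrays. The samples came from the olfactory bulb (OB, its core region), where adult-born neurons settle, and from the subependymal zone (SEZ), the niche that produces them. The conditional knockouts (cKO, genotype GlastCreERT2/Brg1fl/fl) carried 2 floxed copies of Brg1, the gene of a chromatin remodelling ATPase, and gave 3 arrays of OB and 3 of SEZ. The controls (GlastCreERT2/Brg1fl/+) carried 1 floxed copy and gave 5 arrays of each tissue, and the control number 5 of SEZ is labelled GlastCreERT2/Brg1+/+. Every group thus carried the inducible Cre from the Glast locus, which is active in astroglia and in neural stem cells, and the labels list no treatment, so that the time of recombination is unknown here. The tissues mix recombined cells with others, and the labels call the samples biological replicates.

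An imprinted gene is expressed mainly from the copy of 1 parent, because the parental copies differ in DNA methylation at a control region that often serves several neighbouring genes. Many imprinted genes act on growth, and in the brain some take part in keeping stem cells quiescent or in holding progenitors back from differentiation. Dlk1, Meg3 and Rian lie in 1 imprinted region of chromosome 12, Igf2, H19 and Cdkn1c in neighbouring regions of distal chromosome 7, Peg3 and Ndn elsewhere on chromosome 7, Plagl1 on chromosome 10 and Grb10 on chromosome 11. In GRCm38.p6 Dlk1 spans chr12:109452485-109463336, Meg3 chr12:109540996-109571729 and Rian chr12:109603945-109661716. H19 spans chr7:142575530-142578146, Igf2 chr7:142650768-142666816 and Cdkn1c chr7:143458339-143461059. Peg3 spans chr7:6703892-6730462, Ndn chr7:62348277-62349928, Plagl1 chr10:13090832-13131694 and Grb10 chr11:11930499-12037428. The values are log2 expression per probe set, each gene is compared only with itself, and the parental copies cannot be distinguished in them.

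Downstream of Meg3 and around Rian the chromosome 12 region holds a long row of microRNA genes that are processed from noncoding transcripts. RefSeq (GRCm38.p6) lists 61 microRNA genes between Dlk1 and Dio3, and 40 of them had a probe set on the array. The 40 genes have 76 mature sequences, which hold 74 different seeds (bases 2 to 8, the part that pairs with a target). The following mature sequences have their seeds in capitals. The sequences of miR-409, miR-487b and miR-154 belong to genes among those whose probe sets tracked Meg3 most closely (Pearson r of 0.98, 0.98 and 0.97). Other genes, such as Mir377 and Mir485, also had 0.97. The other 4 sequences are the members of the seeds that more than 1 of these 40 genes shares.
miR-409-3p, chr12:109743204-109743225, plus strand: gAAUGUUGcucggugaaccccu
miR-487b-5p, chr12:109727347-109727367, plus strand: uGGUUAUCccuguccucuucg
miR-154-5p, chr12:109738438-109738459, plus strand: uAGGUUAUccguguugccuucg
miR-379-3p, chr12:109709102-109709123, plus strand: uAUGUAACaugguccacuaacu
miR-411-3p, chr12:109710225-109710246, plus strand: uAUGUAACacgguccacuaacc
miR-376b-5p, chr12:109723471-109723492, plus strand: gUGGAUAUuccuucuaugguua
miR-376c-5p, chr12:109722733-109722754, plus strand: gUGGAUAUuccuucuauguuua
The pair miR-379-3p and miR-411-3p shares the seed AUGUAAC, and the pair miR-376b-5p and miR-376c-5p shares the seed UGGAUAU. The probe sets read precursor or host RNA and not the mature microRNA.

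The 4 protein-coding members whose level differed between the tissues are shown next by the 250 bases before a start that RefSeq gives, with each CG in capitals, since imprinting rests on methylation of this pair of letters. CG reads the same on both strands. Methylation was not measured, and the counts are a description of the letters. At least 1 CG is present in 92.1% of 32851 promoters of this length, with a median of 6.
Dlk1, chr12:109452573-109452822, plus strand: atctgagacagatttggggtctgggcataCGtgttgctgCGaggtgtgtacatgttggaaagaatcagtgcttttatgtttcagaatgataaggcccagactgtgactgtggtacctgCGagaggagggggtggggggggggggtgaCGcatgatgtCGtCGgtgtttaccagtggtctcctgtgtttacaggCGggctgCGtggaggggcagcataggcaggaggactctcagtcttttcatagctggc
Ndn, chr7:62348027-62348276, plus strand: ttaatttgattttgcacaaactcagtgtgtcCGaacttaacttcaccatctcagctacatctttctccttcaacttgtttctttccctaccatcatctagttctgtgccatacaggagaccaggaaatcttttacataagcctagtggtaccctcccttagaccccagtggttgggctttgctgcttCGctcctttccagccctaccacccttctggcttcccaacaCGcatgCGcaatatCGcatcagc
Grb10, chr11:12037421-12037670, minus strand: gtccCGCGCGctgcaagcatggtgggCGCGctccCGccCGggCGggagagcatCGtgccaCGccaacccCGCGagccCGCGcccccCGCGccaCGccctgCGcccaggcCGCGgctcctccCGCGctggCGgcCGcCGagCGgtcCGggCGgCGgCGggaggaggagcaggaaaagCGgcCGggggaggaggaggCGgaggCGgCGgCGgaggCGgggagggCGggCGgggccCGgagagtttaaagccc
Plagl1, chr10:13090582-13090831, plus strand: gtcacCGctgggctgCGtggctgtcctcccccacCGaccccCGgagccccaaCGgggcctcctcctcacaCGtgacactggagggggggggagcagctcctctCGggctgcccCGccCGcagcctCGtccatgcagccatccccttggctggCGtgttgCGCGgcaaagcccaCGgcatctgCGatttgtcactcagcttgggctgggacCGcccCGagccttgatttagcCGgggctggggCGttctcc
The window of Dlk1 holds 8 CG and that of Ndn 5, near the median of all promoters. The Dlk1 window lies inside the span of the gene given above, so it precedes an inner start and not the outermost end of the gene. Plagl1 has 19, a number reached by 19.7% of all promoters. The Grb10 window has 40, a number reached by 1.31%, while the window of a second RefSeq start of Grb10 has 8.

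Some arrays stood apart and bear on what follows. Array medians lay between 7.4485 and 7.654. Smarca4, the gene of Brg1, averaged 11.02 in OB cKO and 11.01 in OB control arrays, and 10.70 in SEZ cKO and 10.71 in SEZ control arrays; its probe set is not tied to the deleted part and checks nothing about the deletion. Slc1a3, the gene of Glast, was at 8.85 and 8.16 on OB and SEZ cKO array 3, and between 11.16 and 12.27 on the others. The cortical marker Slc17a7 was at 10.58 and 11.06 on SEZ control arrays 2 and 4, and between 7.84 and 8.98 on the other SEZ arrays. The class of Xist level (above or below 9) matched between the OB and SEZ arrays of the same number in 7 of 8 cases, the exception being cKO 1. The main pattern of variation within groups, a component that held 41% of the variance left after removing group means, was positive on 7 arrays (OB cKO 1 and 3, OB control 1 and 3, SEZ cKO 3, SEZ control 1 and 3) and negative on 9. Some marker lists fitted the tissue labels: 9 of 9 genes of granule and periglomerular neurons were higher in OB and 8 of 8 genes of dividing progenitors lower, in cKO as in control mice. The list of 12 astrocyte and neural stem cell genes was mixed, with 2 higher and 3 lower in OB in cKO mice, and 2 and 4 in control mice. All 8 measured markers of striatal projection neurons were lower in OB, where their summed log2 level was 13.33 to 13.6, against 15.8 to 16.03 in SEZ, so the SEZ samples held striatal RNA.

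OB and SEZ differed in 4 of the 9 measured genes in control mice. Dlk1, Ndn and Grb10 were lower in OB and Plagl1 was higher, by limma on all 16 arrays with Benjamini-Hochberg adjustment over all genes at a threshold of 0.05. Of all genes tested in this comparison, 27.5% passed, 12.6% higher and 14.9% lower in OB. In cKO mice 3 of the 9 passed, Dlk1 and Grb10 lower in OB and Plagl1 higher, with 23.1% of all genes passing, 13.1% of all genes lower in OB. The median difference over the 9 genes was 0.03 in cKO and -0.03 in control mice, and over all genes -0.02 and 0.0034. In such bulk tissue, fewer cells of a type and less RNA per cell cannot be told apart, and the part of the striatal and other neighbouring cells in these differences was not tested.

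**Figure D1:**
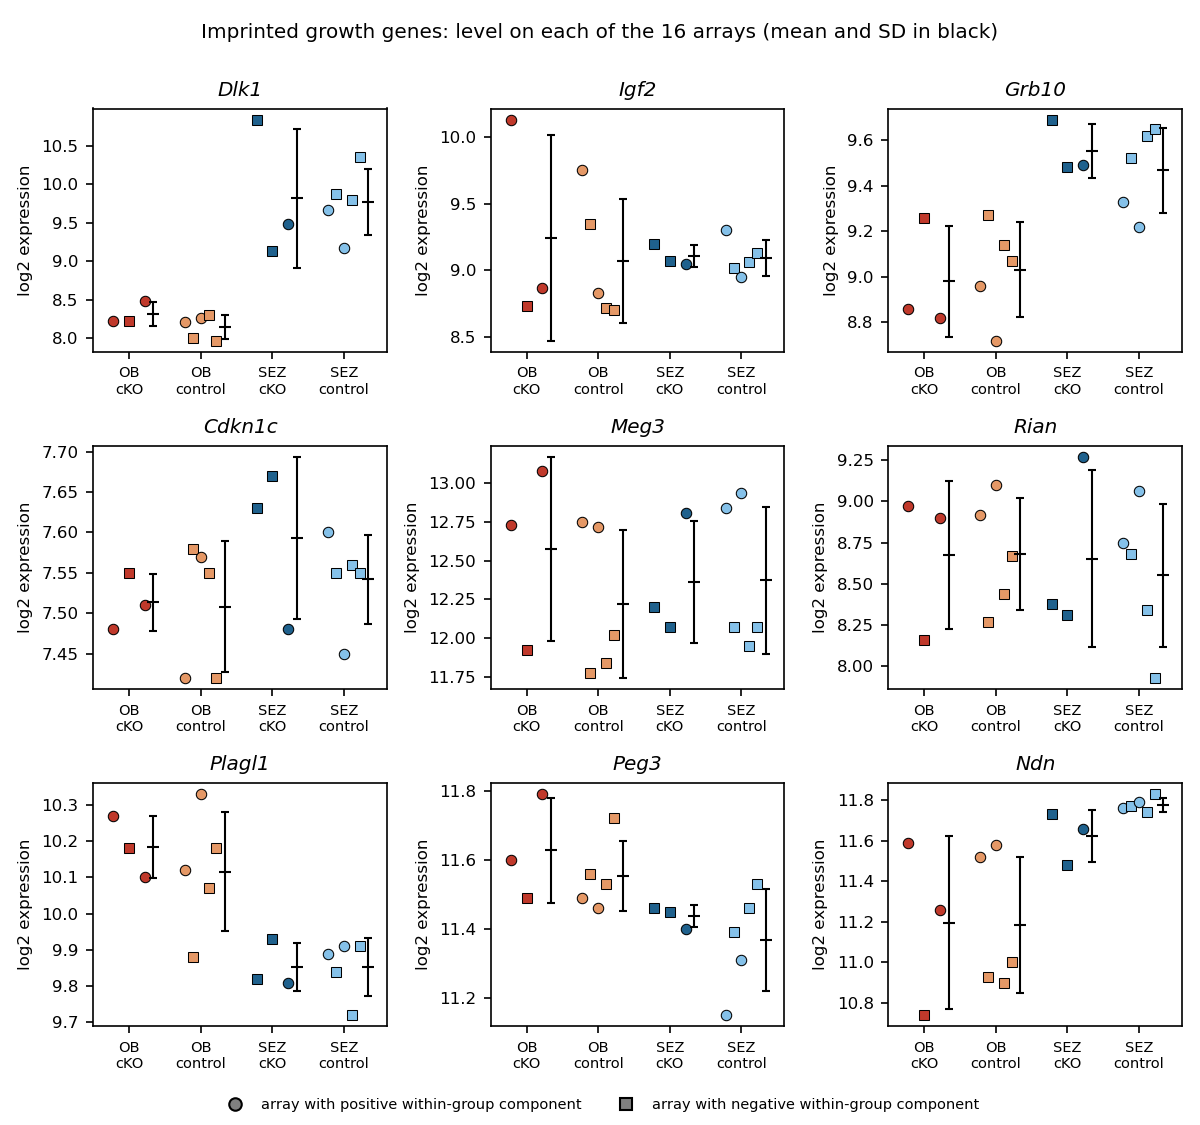
Log2 expression of the 9 measured genes on each of the 16 arrays, by group (OB cKO, OB control, SEZ cKO, SEZ control). Each point is 1 array, circles are the 7 arrays with a positive and squares the 9 with a negative within-group component, and the black mark is the group mean with its SD; vertical axes differ between genes. Dlk1 is at most 8.49 in OB and at least 9.13 in SEZ, while Meg3 splits by symbol and not by group.

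Among the growth ligands, Dlk1 showed the largest tissue difference of the 9 genes in both genotypes. It encodes a membrane and secreted protein related to the Notch ligands, which supports adult neural stem cells in the niche. In cKO mice Dlk1 was at 8.23, 8.22 and 8.49 in OB, against 10.84, 9.13 and 9.49 in SEZ. In control mice it was at 8.21, 8.0, 8.27, 8.31 and 7.97 in OB, against 9.67, 9.88, 9.17, 9.79 and 10.35 in SEZ. Every OB array lay below every SEZ array. The OB level was 0.352 times the SEZ level in cKO mice (log2 difference -1.51, SE 0.32, limma adjusted p = 0.00219) and 0.325 times in control mice (-1.62, SE 0.25, adjusted p = 7.54e-05). The spread was wider in SEZ (SD 0.9 in cKO, n = 3, and 0.42 in controls, n = 5) than in OB (0.15 and 0.16). Array 1 of SEZ cKO was the highest of all, and without it the cKO difference was -1.0 (adjusted p = 0.00612), while without array 1 of both tissues it was -0.95 (adjusted p = 0.0233). In control mice the difference was -1.18 within the arrays of positive component (2 of each tissue) and -1.91 within those of negative component (3 of each). Of the cKO arrays, SEZ had 1 with a positive and OB 1 with a negative component, so a cKO difference within either set would rest on a single array and is not set beside the results.

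Igf2, the insulin-like growth factor that in the adult brain comes largely from the choroid plexus, meninges and vessels, did not pass between the tissues. It was at 10.13, 8.73 and 8.87 in OB cKO, 9.75, 9.35, 8.83, 8.72 and 8.7 in OB control, 9.2, 9.07 and 9.05 in SEZ cKO and 9.3, 9.02, 8.95, 9.06 and 9.13 in SEZ control arrays. The SEZ arrays were close together, and the OB arrays lay on both sides of them. OB minus SEZ was 0.14 in cKO mice (95% interval -0.5 to 0.77, limma adjusted p = 0.817) and -0.02 in control mice (-0.51 to 0.47, adjusted p = 0.969). The 3 OB arrays with the highest Igf2 (cKO 1, control 1 and control 2) also had the highest summed level of 12 meningeal and fibroblast markers, at 12.76, 12.55 and 12.64, against 11.8 to 12.09 on the other OB arrays and 10.96 to 11.17 in SEZ. After removing group means, Igf2 followed that sum with Pearson r = 0.93 and Spearman rho = 0.96 over the 16 arrays, and r = 0.9 without the 2 arrays farthest from the median. The single markers did not all do so: Ogn, Slc6a13, Fmod, Slc22a6, Aldh1a2 and Dcn had r between 0.89 and 0.94, Lum, Islr, Mgp and Col1a2 between 0.44 and 0.53, and the collagen genes Col1a1 and Col3a1 0.16 and -0.15. With the summed level of 9 choroid plexus markers Igf2 had r = 0.19. Singly, these were mixed: Kcnj13 had 0.86, Aqp1 0.51, Kl 0.31 and Clic6 0.21. Ttr, the transthyretin gene, had -0.12, Folr1 -0.15, Otx2 -0.19, Kcne2 -0.27 and Slc4a5 -0.43. Igf2 also followed the summed markers of endothelium (r = 0.69), of septal, cholinergic and hypothalamic neurons (0.67) and of mural cells (0.64). The single markers of those neurons were split: Trh had 0.67, Zic2 0.54 and Zic1 0.32. On the other side, Slc5a7 had -0.18, Sim1 -0.32, Slc18a3 -0.41 and Chat -0.49. With those of astrocytes and neural stem cells r was 0.62, and with the remaining lists it lay between -0.43 and 0.29. The 5 genes closest to Igf2 were Itih2 (r = 0.96), Ranbp3l (0.95), Slc6a13, Slc22a2 and Ogn (0.94 each), of which Slc6a13 and Ogn are on the meningeal list. These correlations carry no test, since the arrays may not be independent and the genes were picked as the highest of all, for Igf2 after its values were seen. The part of meningeal tissue in the Igf2 level was not tested.

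**Figure D2:**
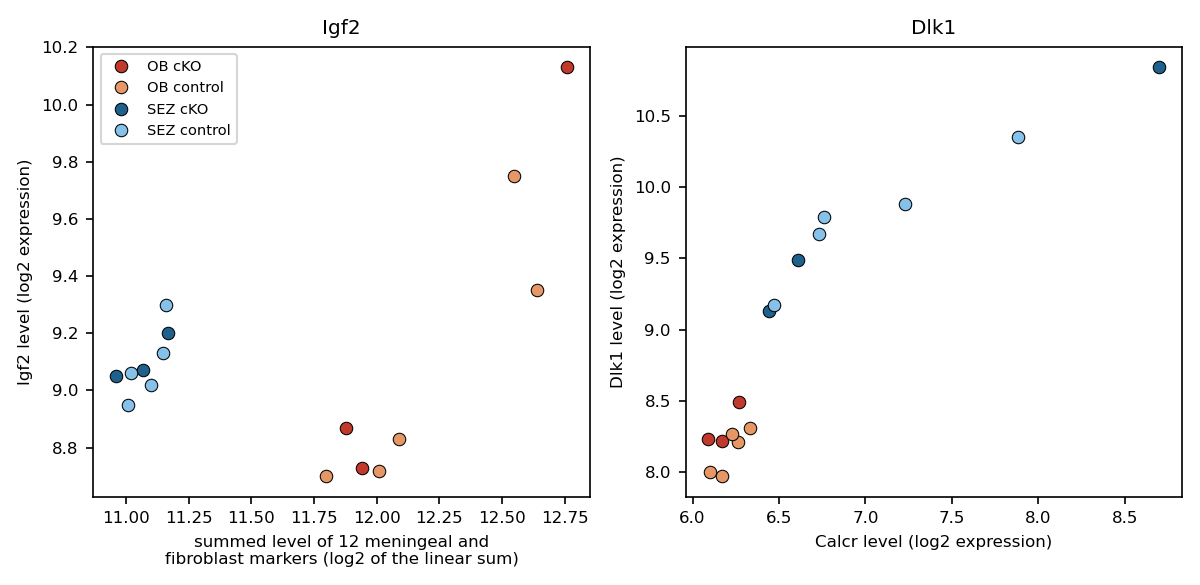
Left, Igf2 level (vertical, log2) against the summed level of 12 meningeal and fibroblast markers (horizontal, log2 of the linear sum); right, Dlk1 against Calcr (both log2), 1 point per array coloured by group. The 3 OB arrays with Igf2 at 9.35 or above are the 3 with marker sums of 12.55 or above, and Dlk1 and Calcr are both highest on array 1 of SEZ cKO (10.84 and 8.7).

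The 2 genes that restrain growth gave different results. Grb10 encodes an adaptor that dampens signalling from the insulin and IGF receptors, and it was lower in OB in both genotypes. In cKO mice it was at 8.86, 9.26 and 8.82 in OB, against 9.69, 9.48 and 9.49 in SEZ. In control mice it was at 8.96, 9.27, 8.72, 9.14 and 9.07 in OB, against 9.33, 9.52, 9.22, 9.62 and 9.65 in SEZ. The cKO groups did not overlap, and in controls 1 OB array (9.27) lay above the lowest SEZ array (9.22). The log2 difference was -0.57 in cKO mice (SE 0.15, adjusted p = 0.00848) and -0.43 in control mice (SE 0.11, adjusted p = 0.00831). The cKO call was lost without array 1 of both tissues (-0.44, adjusted p = 0.143) and without array 3 of both (-0.52, 0.0691), and the control call without SEZ control 2 and 4 together (-0.36, 0.0672). Cdkn1c, the cyclin-dependent kinase inhibitor p57, which holds stem cells out of the cell cycle, varied least of the 9 genes, with all arrays between 7.42 and 7.67. Its mean level of 7.54 was also the lowest of the 9 and under the median of 8.11 over all genes. Its OB minus SEZ difference was -0.08 in cKO mice (95% interval -0.24 to 0.08) and -0.03 in control mice (-0.15 to 0.09), with limma adjusted p of 0.527 and 0.758.

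Of the nuclear regulators, Ndn was lower and Plagl1 higher in OB. Ndn encodes necdin, a protein of the MAGE family that restrains the cell cycle and favours neuronal differentiation. In cKO mice Ndn was at 11.59, 10.74 and 11.26 in OB, against 11.73, 11.48 and 11.66 in SEZ. In control mice it was at 11.52, 10.93, 11.58, 10.9 and 11.0 in OB, against 11.76, 11.77, 11.79, 11.74 and 11.83 in SEZ. The control groups did not overlap and the cKO groups overlapped through OB array 1. OB minus SEZ was -0.43 in cKO mice (SE 0.19, adjusted p = 0.136, not passing) and -0.59 in control mice (SE 0.15, adjusted p = 0.00623). The knockout effect in SEZ minus that in OB, which is also the difference of these tissue effects, was -0.17 (95% interval -0.69 to 0.35, limma adjusted p = 1.0), so the genotypes were not shown to differ. Without OB cKO 1 the cKO difference was -0.63 (adjusted p = 0.0345), and without OB cKO 2 it was -0.2 (0.503). In controls the difference was -0.23 (adjusted p = 0.247) within the arrays of positive component and -0.84 (2.45e-05) within those of negative component.

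Plagl1 encodes a zinc finger transcription factor that restrains proliferation and acts on other imprinted genes. It was at 10.27, 10.18 and 10.1 in OB cKO, against 9.82, 9.93 and 9.81 in SEZ cKO arrays. In control mice it was at 10.12, 9.88, 10.33, 10.07 and 10.18 in OB, against 9.89, 9.84, 9.91, 9.72 and 9.91 in SEZ. All cKO arrays of OB were above those of SEZ, and in controls all but OB array 2 were. The log2 difference was 0.33 in cKO mice (SE 0.1, adjusted p = 0.0197) and 0.26 in control mice (SE 0.08, adjusted p = 0.0156). The cKO call was lost under 6 of 18 alternatives, among them centring on array medians (0.25, adjusted p = 0.0728) and leaving out array 1 of both tissues (0.27, 0.189), and the control call without SEZ control 2 and 4 together (0.21, 0.107). In control mice Plagl1 did not pass within the arrays of positive or of negative component, at 0.32 and 0.22 (limma adjusted p 0.0776 and 0.113). Peg3, a zinc finger protein of the paternally expressed kind, was at 11.6, 11.49 and 11.79 in OB cKO, against 11.46, 11.45 and 11.4 in SEZ cKO arrays. These did not overlap, yet the difference of 0.19 did not pass (SE 0.1, adjusted p = 0.217) by limma. In control mice Peg3 was at 11.49, 11.56, 11.46, 11.53 and 11.72 in OB, against 11.15, 11.39, 11.31, 11.46 and 11.53 in SEZ. These groups overlapped, and the difference of 0.18 did not pass (SE 0.08, limma adjusted p = 0.0977). Non-overlapping groups were found for 4 of the 9 genes in cKO mice (Dlk1, Grb10, Plagl1, Peg3), beside 33.3% of all genes, and for 2 in control mice (Dlk1, Ndn), beside 21.9%.

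**Figure D3:**
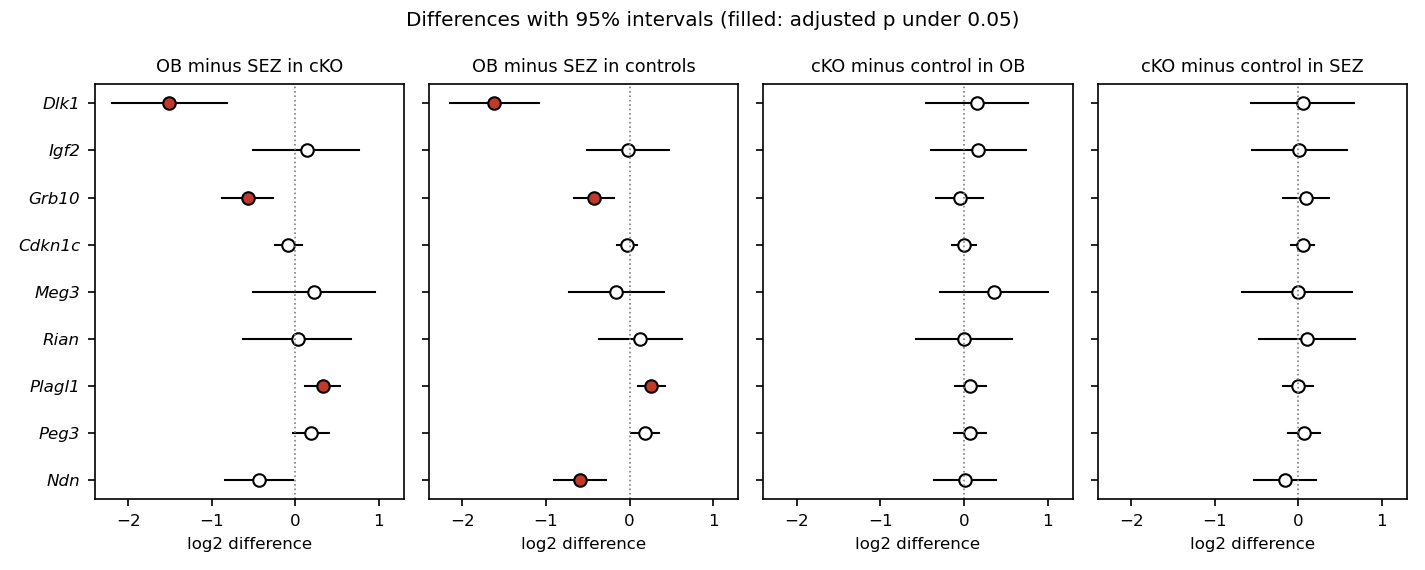
Log2 difference (horizontal) with its 95% interval for each of the 9 genes in 4 comparisons, from left to right OB minus SEZ in cKO, OB minus SEZ in controls, cKO minus control in OB and cKO minus control in SEZ; filled points passed at an adjusted p under 0.05. The filled points are Dlk1, Grb10 and Plagl1 in both tissue comparisons and Ndn in controls, and all intervals of the knockout comparisons span 0.

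The noncoding RNAs of chromosome 12 did not pass between the tissues, and both varied widely within groups. Meg3 is a maternally expressed long noncoding RNA, and Rian is a host transcript of small nucleolar RNAs and microRNAs from the same strand. Meg3 was at 12.73, 11.92 and 13.08 in OB cKO, 12.75, 11.77, 12.72, 11.84 and 12.02 in OB control, 12.2, 12.07 and 12.81 in SEZ cKO and 12.84, 12.07, 12.94, 11.95 and 12.07 in SEZ control arrays. Rian was at 8.97, 8.16 and 8.9 in OB cKO, 8.92, 8.27, 9.1, 8.44 and 8.67 in OB control, 8.38, 8.31 and 9.27 in SEZ cKO and 8.75, 8.68, 9.06, 8.34 and 7.93 in SEZ control arrays. OB minus SEZ was 0.22 in cKO (95% interval -0.51 to 0.95) and -0.16 in control mice (-0.72 to 0.41) for Meg3, and 0.03 (-0.62 to 0.67) and 0.13 (-0.37 to 0.63) for Rian. Meg3 had the largest SD within groups of the 9 genes (0.49), ahead of Dlk1 (0.46) and Rian (0.43).

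The arrays fell into separate sets on Meg3. It was between 12.72 and 13.08 on the 7 arrays of positive component and between 11.77 and 12.2 on the 9 of negative component, and each of the 4 groups held arrays of both kinds. With the component itself, which was computed from all genes, Meg3 correlated at r = 0.95, Rian at 0.82, Ndn at 0.57 and Grb10 at -0.87, while Dlk1 stood at -0.33 and Igf2 at 0.3. Meg3 and Rian correlated at r = 0.87 over the 16 arrays after removing group means, but at 0.18 within the 7 arrays and 0.44 within the 9, so the pooled value mostly holds the gap between the sets. The 5 genes most like Meg3 were Rtel1 and Arhgef1 (r = 0.99), Srsf11, Leng8 and Fam193b (0.98), and their r within the sets was 0.77 to 0.98 on the 7 arrays and 0.78 to 0.92 on the 9. Those most like Rian were Amy1, Ints10 (0.94), Dtnb, Snord33 and 9430015G10Rik (0.93). What sets the 7 arrays apart was not tested.

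Most microRNA probe sets of the region followed Meg3. Over the 40 probe sets, r with Meg3 ran from 0.22 to 0.98 with a median of 0.94, and 24 (60.0%) were over 0.9, as were 1.96% of all genes. Dlk1 itself had r = -0.17 with Meg3. Mir487b, as an example at r = 0.98, was at 7.86, 7.19 and 8.65 in OB cKO, 8.27, 7.01, 8.07, 7.17 and 7.28 in OB control, 7.61, 7.31 and 8.52 in SEZ cKO and 8.3, 7.42, 8.67, 7.38 and 7.47 in SEZ control arrays. Its r within the sets was 0.93 on the 7 arrays, the highest of the 40 there, and 0.92 on the 9. For Mir409 these were 0.82 and 0.84. Others were lower on the 7 arrays: Mir329 had 0.4 and 0.79, Mir679 0.37 and 0.85, Mir543 -0.27 and 0.82, and Mir127 -0.17 and 0.16. The pooled values thus also hold the gap between the sets. Mir434, Mir299a, Mir666 and Mir379 were the 4 with r under 0.6. Among the genes with shared seeds r was 0.54 for Mir379, 0.74 for Mir411, 0.96 for Mir376b and 0.76 for Mir376c. Several of these probe sets were dim, under the lower quartile of 6.54 over all genes. Mean levels were 4.79 for Mir434, 4.94 for Mir299a, 4.81 for Mir379, 5.09 for Mir411 and 4.13 for Mir376c. Mir376b was at 7.06 and Mir666 at 8.53, and Mir376a had r = 0.9 at a level of 4.68. The part of low level in these r was not tested. By limma, 0 of the 40 passed in any of the 4 comparisons, with OB minus SEZ between -0.17 and 1.28 in cKO and between -0.34 and 0.42 in control mice. The neighbours Rtl1 and Dio3, protein-coding genes of the region, did not pass either (Rtl1 -0.19 in cKO and -0.21 in controls, Dio3 -0.3 and -0.13). The choice of these neighbours was made after values were seen, and no source used here says whether the probes keep the strands apart.

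**Figure D4:**
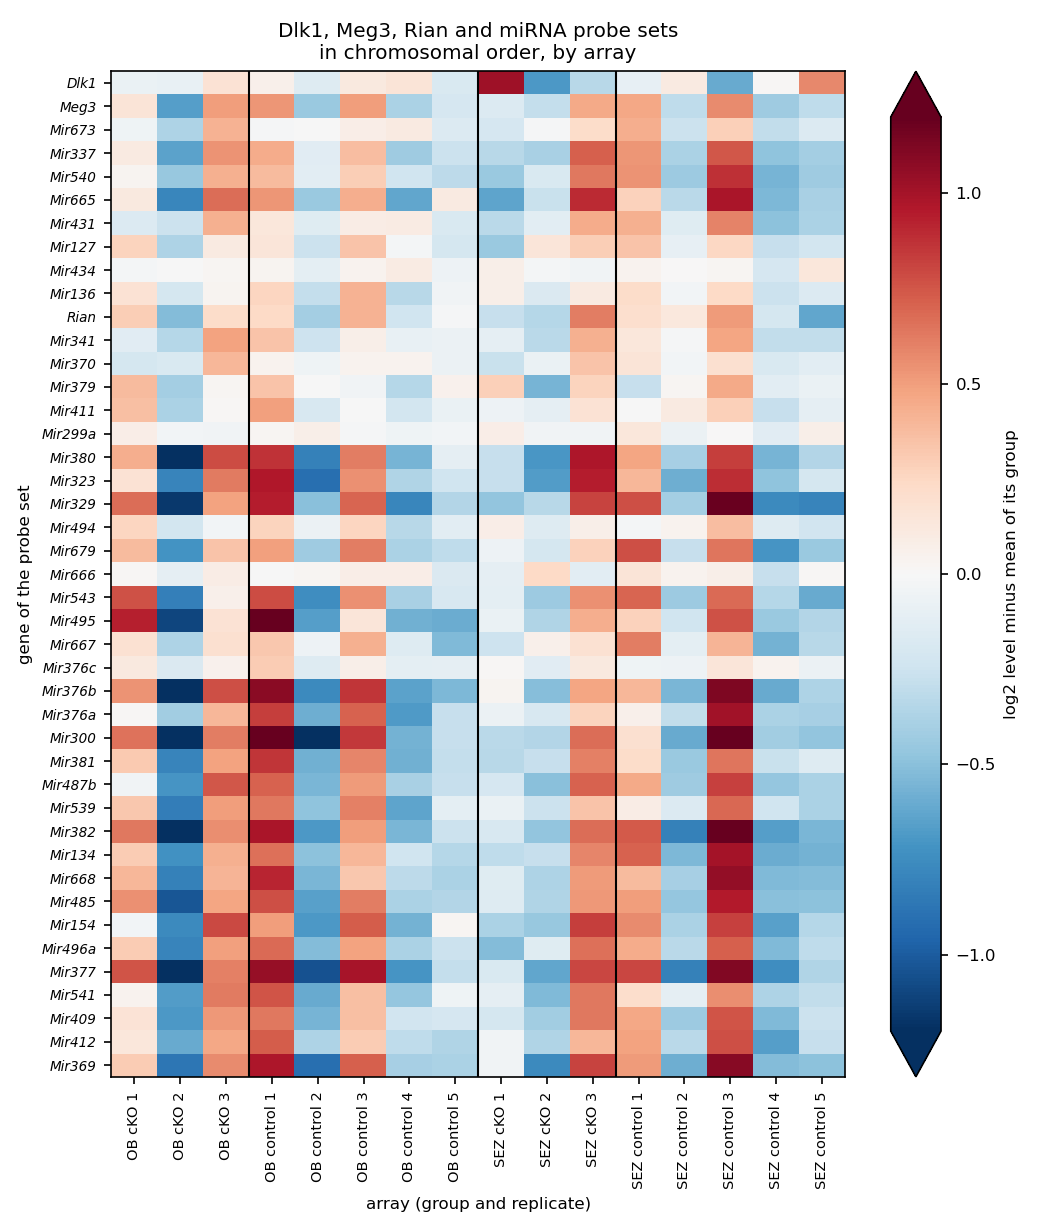
Log2 level minus its group mean (colour) for Dlk1, Meg3, Rian and 40 microRNA probe sets in chromosomal order (rows) on the 16 arrays (columns, black lines between groups); values past either end of the colour bar have its end colour. Most microRNA rows share the pattern of Meg3, raised on the 7 arrays OB cKO 1 and 3, OB control 1 and 3, SEZ cKO 3 and SEZ control 1 and 3, while Dlk1 is highest on SEZ cKO 1.

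The deviations of Dlk1 within groups were shared by another set of genes. After removing group means, Calcr, the imprinted calcitonin receptor gene of chromosome 6, was the closest of all genes (r = 0.96, rho = 0.91, 0.9 without the 2 farthest arrays), followed by Flcn (0.95), Rasal1 (0.94), Ptpdc1 (0.93) and Dscaml1 (0.92). Calcr was at 6.09, 6.17 and 6.27 in OB cKO, 6.26, 6.1, 6.23, 6.33 and 6.17 in OB control, 8.7, 6.44 and 6.61 in SEZ cKO and 6.73, 7.23, 6.47, 6.76 and 7.88 in SEZ control arrays. The SEZ arrays stand in the same order for both genes at the top, with cKO 1 highest and control 5 next, and all OB arrays lie below them. In OB Calcr lay between 6.09 and 6.33, under the lower quartile of 6.54 over all genes. Calcr was -1.07 in OB minus SEZ in cKO (limma adjusted p = 0.0867) and -0.8 in controls (0.0893), which did not pass. The likeness concerns deviations within groups, and the tissue differences varied. Rasal1 was lower in OB (7.88 to 8.22, against 8.54 to 9.37 in SEZ). Dscaml1 was higher in OB (10.62 to 10.73, against 9.76 to 10.09), and Ptpdc1 mostly so (8.83 to 8.96, against 8.28 to 8.86). Flcn overlapped, at 9.0 to 9.1 in OB and 8.72 to 9.17 in SEZ. For Plagl1 the 5 closest genes were Olfr16 (0.88), Zmym5 (0.85), Gtf2ird2 (0.84), Gemin2 (0.83) and Ust (0.82). Olfr16 lay between 5.3 and 5.75 on all arrays, under the lower quartile of 6.54 over all genes. These correlations are descriptions of the highest r among all genes, and no test was made.

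No change was called in any of the 9 genes between cKO and control mice. By limma, 0 of 9 passed for cKO against control in OB, beside 0.0451% of all genes, and 0 of 9 in SEZ, beside 0.0%. The number with an unadjusted p under 0.05 was also 0 in both tissues. In OB the differences ran from -0.05 for Grb10 (95% interval -0.33 to 0.23) to 0.36 for Meg3 (-0.29 to 1.01), with 0.16 for Dlk1 (-0.45 to 0.77) and 0.17 for Igf2 (-0.4 to 0.74). The Igf2 value rests on OB cKO 1, without which it was -0.27. The Meg3 value was 0.11 without OB cKO 3 and 0.69 without OB cKO 2, and 0.14 with the replicate number as a block. In SEZ they ran from -0.16 for Ndn (-0.53 to 0.21) to 0.1 for Rian (-0.47 to 0.68), and Dlk1 was 0.05 (-0.57 to 0.66), or -0.46 without SEZ cKO 1. For Cdkn1c the interval was -0.14 to 0.14 in OB and -0.09 to 0.19 in SEZ, and for Plagl1 -0.11 to 0.26 and -0.18 to 0.18. In SEZ all 3 cKO arrays of Ndn (11.48 to 11.73) lay below all 5 control arrays (11.74 to 11.83), the only member with groups that do not overlap there, beside 2.0% of all genes, and no member had this in OB, beside 2.53%. The knockout effects of the tissues did not differ for any member by the test of the difference (0 of 9, beside 0.00502% of all genes), whose estimates ran from -0.37 for Meg3 to 0.14 for Grb10.

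Of 40 other imprinted genes listed, 32 were measured. In cKO mice 4 were higher and 6 lower in OB, and in control mice 6 were higher and 5 lower, with a median of -0.02 and -0.01. These are 31.2% and 34.4% of the 32 genes, beside 23.1% and 27.5% of all genes, and nothing particular to imprinted genes is read from them. Airn, the noncoding RNA that runs antisense to Igf2r, had the largest difference, with a mean of 10.72 in OB and 7.63 in SEZ cKO arrays (difference 3.1, adjusted p = 4.8e-10) and of 10.43 in OB and 7.73 in SEZ control arrays (2.71, 5.33e-11). Igf2r, the receptor that clears Igf2, was higher in OB in controls by 0.41 (adjusted p = 0.0139), and reads of overlapping antisense genes may not be kept apart on such probes. Kcnk9, a potassium channel gene, and Rasgrf1, an exchange factor for Ras, were higher in OB by 1.32 and 0.65 in cKO and by 1.07 and 0.5 in control mice. Mkrn3 was higher by 0.35 in cKO and 0.51 in control mice, at a low level with group means between 5.64 and 6.15. H13 was higher by 0.23 in controls.

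Lower in OB were Peg10, a gene derived from a retrotransposon, with -1.82 in cKO and -1.38 in control mice, its neighbours Ppp1r9a (-1.36 and -1.21) and Sgce (-0.78 and -0.63), and Inpp5f (-0.69 and -0.62) and Nnat (-0.69 and -0.39). Ddc, the neighbour of Grb10 on chromosome 11, was lower in cKO mice (-0.72, adjusted p = 0.029) and did not pass in controls (-0.39, 0.119). On chromosome 6, which holds Peg10, Sgce, Ppp1r9a and Calcr, 3 of 8 measured genes fell in each genotype, and 6 of 8 estimates in cKO and 8 of 8 in control mice were below 0. Of all genes, 13.1% fell in cKO and 14.9% in control mice, and 10664 and 9785 of 19938 estimates were below 0. Within 1 megabase of Ndn on chromosome 7, Mkrn3 rose in OB while Ndn fell in controls, and Magel2 (-0.2 in cKO, -0.13 in controls) and Peg12 (-0.0023 and -0.04) did not pass. Beside Peg3, Zim1 and Usp29 did not pass, and none of Kcnq1, Phlda2, Slc22a18, Ascl2 and Tssc4 passed in the neighbourhood of Cdkn1c. By limma, 0 of the 32 passed for cKO against control in either tissue, and Nnat in OB was the 1 gene with an unadjusted p under 0.05. The neighbours that did not pass were named after their values were seen.

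**Figure D5:**
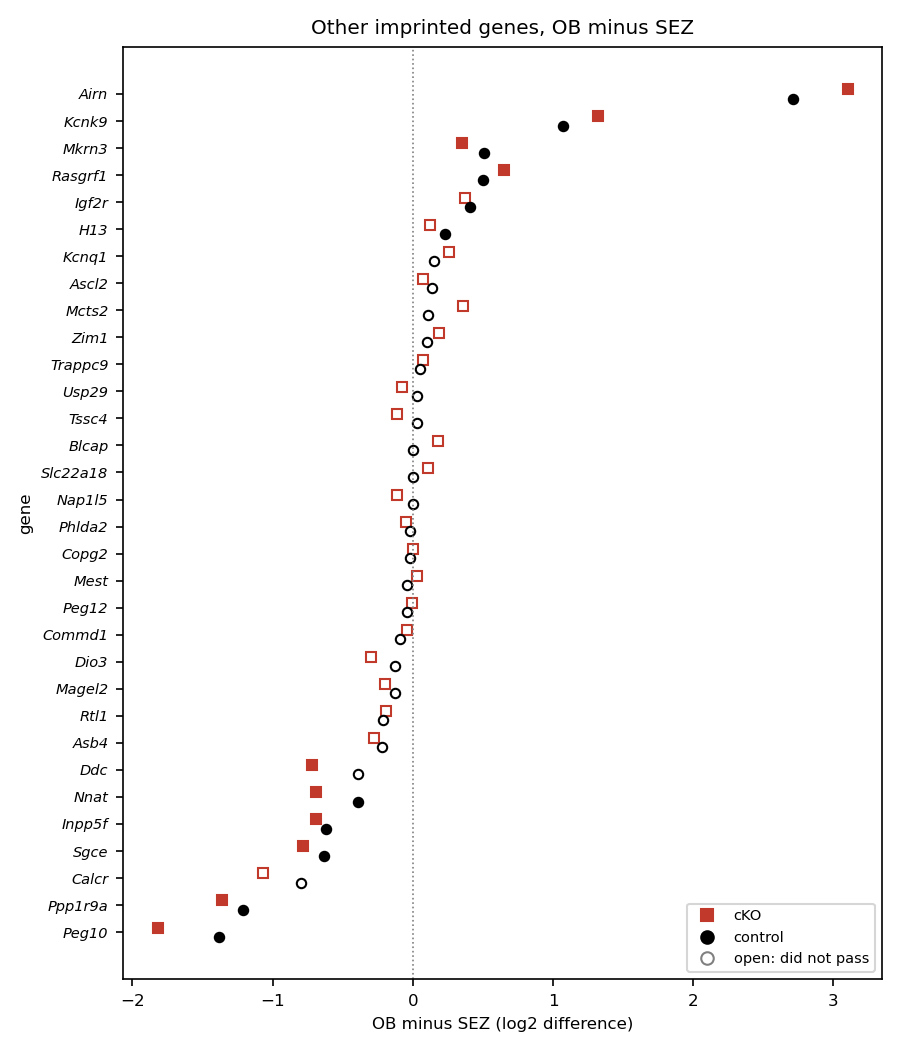
OB minus SEZ (horizontal, log2 difference) for the 32 other imprinted genes measured, ordered by the difference in controls; red squares are cKO and black circles control mice, filled where the adjusted p was under 0.05. Airn lies at 3.1 and 2.71 and Peg10 at -1.82 and -1.38, while most genes lie near 0.

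Of 17 measured genes of the IGF axis, 4 rose and 1 fell in OB in cKO mice, and 5 rose and 1 fell in control mice. These are 29.4% and 35.3% of the list, beside 23.1% and 27.5% of all genes. Igf1, the related ligand, averaged 9.37 ± 0.34 in OB and 7.17 ± 0.17 in SEZ cKO arrays (difference 2.2, limma adjusted p = 1.31e-07), and 9.26 ± 0.34 in OB and 7.2 ± 0.12 in SEZ control arrays (2.06, 7.01e-09). Irs1, an adaptor of the insulin and IGF receptors, was higher by 1.81 in cKO and 1.63 in control mice, the binding protein gene Igfbp2 by 1.93 and 1.61 and Igfbp6 by 0.72 and 0.8. Igfbp4, another binding protein gene, was lower by a log2 difference of -1.43 in both genotypes. Among 11 genes of the Notch pathway, 2 rose and 2 fell in cKO mice and 3 rose and 2 fell in controls, which is 36.4% and 45.5% of the list, beside the same shares of all genes. The receptor gene Notch2 was higher in OB (0.86 in cKO, 0.78 in controls) and Notch1 lower (-0.7 and -0.56). The ligand gene Dll1 was higher (0.43 and 0.48), the target gene Hey1 was lower (-0.72 and -0.68), and Jag2, another ligand gene, was higher in controls (0.25, adjusted p = 0.0202). By limma, 0 genes of either list passed for cKO against control, and 0 had an unadjusted p under 0.05.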

How the data were processed

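Total RNA was extracted with a column kit including DNase treatment, per the labels' protocols, and hybridised to 16 one-colour Affymetrix arrays. The deposited values are log2 expression per probe set, made by the authors with RMA in Affymetrix Expression Console 1.2, per the submitters' processing notes. RMA subtracts background, makes the distributions of the arrays equal and sums probes, so it can damp a shift shared by most genes. No genome build was found in the labels; printed sequences and positions are from RefSeq tables of GRCm38.p6.

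Of 35556 probe sets, 21789 had 1 symbol in the platform annotation, 1621 several and 12146 none. Each gene was represented by its brightest probe set with 1 symbol, which gave 19938 genes. All 16 arrays were fitted in limma 3.58.1 (R 4.3.3) with 4 groups and no covariate, two-sided, with 12 residual and 4.34 prior degrees of freedom, and p-values were adjusted over all genes. The number of arrays limits the precision. The fit was tested on simulated data with known changes and noise independent between arrays, so without the within-group component. Of 100 changes of 0.5 in log2, it called 59 for cKO against control in OB, 68 in SEZ and 69 for OB minus SEZ in controls. Of 100 changes of 1, it called 99, 96 and 96. The changes were put into genes drawn at random from all genes, 100 of each size at once. So many changes make the adjusted threshold easier to reach than in the real knockout comparisons, where 9 genes passed in OB and 0 in SEZ. The rates are therefore not those of single members. For Meg3, Dlk1, Rian and Igf2 the SE of cKO minus control was 0.27 to 0.31, so a change of 0.5 in them could be missed. The members and the gene and marker lists were chosen with earlier results of these data known. All members were named, from each other list the genes that passed with up to 6 of smallest p, and the 5 genes of highest correlation for Meg3, Dlk1, Rian and Plagl1. The alternatives were other fits, normalizations, filters and thresholds, leaving out arrays, and the replicate number as a block. Fits that held the component as a covariate, or kept arrays of 1 sign of it, were chosen after the data were seen.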

Additional observations from a re-analysis of the deposited data

Results flagged for a closer look

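Among 34 named genes, each tested in the OB and SEZ control groups of 5 arrays (68 tests), 2 values lay farther from the other arrays of their group than the critical ratio of gap to range allows (0.71), and chance flags about 1 group in 20. Neither is one of the imprinted growth genes. Nnat, an imprinted gene of chromosome 2, was at 11.86 on OB control 1, where the group's median was 11.5. Slc1a3, the gene of Glast, was at 12.27 on OB control 2, where the other 4 arrays lay between 11.64 and 11.72.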

How the results depend on the processing

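The calls of Dlk1 in both genotypes and of Ndn in control mice held under all alternatives but 1 kind: Ndn did not pass on the arrays of positive component only, a choice made after the data were seen. No call changed direction. Leaving out 1 array gave 4 called members for OB minus SEZ in controls each time, and 0 in the knockout comparisons and their difference. In cKO mice it gave 2 to 3 (2 without SEZ cKO 1 and without SEZ cKO 3). Without OB cKO 1 the 3 were Dlk1, Grb10 and Ndn (limma adjusted p = 0.0345), and Plagl1 was lost (0.0874). Centring on array medians gave these same 3 in cKO mice. The count was 2 in controls without SEZ control 2 and 4 together and on the arrays of positive component only, and 1 in cKO mice without cKO 1 of both tissues and without cKO 3 of both tissues. The same-numbered samples of the tissues deviated together with r from -0.06 to 0.57 (over 0.1 in 7 of 8). Those of the genotypes did so with r from -0.41 to 0.61 (5 of 6). In the other tissue, 9 of 16 arrays matched best with their own number, so OB and SEZ arrays of a number may come from the same mouse. The labels do not say this, and the main fit treated all arrays as independent. With the replicate block the counts were 4 in controls, 3 in cKO mice and 0 in the other comparisons. Between the tissues this block pairs the cKO 1 arrays, although their Xist classes differ. Centring arrays on their medians changed the split over all genes for OB minus SEZ in cKO to 1487 higher and 3073 lower, against 1993 and 2621.

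Of 38 member results that did not pass, 25 took the opposite sign to 2 decimals somewhere, none of them passing, and the cause was not tested. For cKO minus control in SEZ, array weights gave -0.2 for Dlk1, 0.2 for Meg3 and -0.01 for Peg3 and Grb10, cyclic loess 0.01 for Meg3, leaving out SEZ control 2 and 4 together -0.02 for Igf2, and the block on replicate number -0.08 for Rian and -0.11 for Igf2. In OB that block gave -0.07 for Ndn and 0.03 for Grb10. Centring gave -0.05 for Rian in OB minus SEZ in cKO and -0.03 for Ndn in cKO minus control in OB. Without cKO 1 of both tissues, Rian and Igf2 were -0.26 in OB minus SEZ in cKO; cKO minus control in OB was -0.27 for Igf2, -0.19 for Ndn and 0.01 for Grb10; in SEZ it was -0.46 for Dlk1, 0.07 for Meg3 and -0.03 for Igf2; and the difference between effects was 0.24 for Igf2. Without cKO 3 of both tissues, cKO minus control in OB was -0.01 for Peg3, -0.02 for Ndn and 0.03 for Grb10, in SEZ -0.2 for Rian, and the difference between effects 0.14 for Dlk1 and -0.09 for Rian.

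The sets by component leave 1 cKO array in 1 tissue (OB cKO 2 among the negative, SEZ cKO 3 among the positive), which is assumed to vary like the other groups, so their cKO values are a description. On the arrays of negative component only, OB minus SEZ in cKO was -0.21 for Meg3, -0.18 for Rian and -0.4 for Igf2; cKO minus control in OB was -0.19 for Igf2, -0.11 for Peg3, -0.21 for Ndn and 0.1 for Grb10; in SEZ it was -0.02 for Dlk1, 0.1 for Meg3 and -0.01 for Grb10; and the difference between effects was 0.05 for Meg3, 0.26 for Igf2, 0.03 for Ndn and -0.11 for Grb10. On those of positive component only, OB minus SEZ was 0.17 for Igf2 in controls and -0.33 for Rian and 0.01 for Cdkn1c in cKO; cKO minus control was -0.03 for Plagl1 and -0.12 for Ndn in OB, and -0.08 for Igf2 and -0.04 for Cdkn1c in SEZ; and the difference between effects was -0.04 for Cdkn1c. Leaving out 1 array gave, for OB minus SEZ in controls, -0.03 to 0.26 for Rian and -0.19 to 0.07 for Igf2; in cKO, -0.03 to 0.54 for Meg3, -0.14 to 0.33 for Rian and -0.3 to 0.39 for Igf2. For cKO minus control in OB it gave -0.27 to 0.43 for Igf2, -0.01 to 0.14 for Peg3, -0.19 to 0.24 for Ndn and -0.19 to 0.03 for Grb10; in SEZ, -0.46 to 0.39 for Dlk1, -0.24 to 0.13 for Meg3, -0.2 to 0.27 for Rian and -0.03 to 0.07 for Igf2. For the difference between effects it gave -0.62 to 0.23 for Dlk1, -0.2 to 0.28 for Rian, -0.41 to 0.28 for Igf2 and -0.4 to 0.03 for Ndn.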
